A study of Mus musculus with 30 samples.

Results

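Sphingosine 1-phosphate (S1P) and lysophosphatidic acid (LPA) are signaling lipids, and 10 mouse genes that make, export, sense or break them down were followed from acutely isolated brain endothelial cells (ECs) into culture. The genes were a fixed list out of 21820 protein-coding genes, chosen with earlier results of these data known. It held 3 S1P receptors (S1pr1, S1pr2, S1pr3), the kinases Sphk1 and Sphk2 and the exporter Spns2. The LPA receptors Lpar4 and Lpar6 and the phosphatases Plpp1 and Plpp3 completed it. In 8-day cultures transcripts for Sphk1, Sphk2, Lpar4, Lpar6 and Plpp1 were more abundant than in acutely isolated ECs. In wild-type (WT) cultures Plpp3 was called lower by counts, but not with a correction for transcript length. S1pr1 was the leading S1P receptor in every library, at 48.2 to 61.1 TPM (transcripts scaled per length and library) in acutely isolated ECs. It was at 173 to 642 TPM in WT cultures. By counts its rise missed the threshold, which it passed with the correction for length. Stabilization of beta-catenin in the mice, before culture, moved none of the 10 genes past the threshold in cultured ECs. The same test called 0 of 12959 genes.

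RNA-seq covered 14 libraries from adult male mice. Acutely isolated ECs (2 libraries) were GFP-positive cells, and non-ECs (2 libraries) were GFP-negative cells, sorted from brains of Tie2-GFP mice, in which the Tie2 promoter drives GFP in ECs; data of cerebrum and cerebellum were combined in these files. WT cultures (6 libraries) were brain ECs purified with puromycin and grown for 8 days. Replicates 1 and 2 came from C57BL/6J mice by isolation method A, replicates 3 and 4 from Ctnnb1flex3/+;Tie2-GFP mice by method B with reads of 150 cycles at another facility, and replicates 5 and 6 from the same genotype by method B with reads of 36 cycles. The sources differ on WT replicates 5 and 6: the Methods, followed here, give them to method B, and a legend to method A. Stabilized cultures (4 libraries, 36 cycles) came from Ctnnb1flex3/+;Pdgfb-CreER;Tie2-GFP mice, replicates 1 and 2 by method A and replicates 3 and 4 by method B. In these mice the Pdgfb promoter drives a tamoxifen-dependent Cre in endothelium, and Cre removes exon 3 of 1 Ctnnb1 allele so that beta-catenin escapes degradation; recombination was not complete. The Ctnnb1flex3/+;Tie2-GFP controls carry the same unrecombined allele and received the same 4-hydroxytamoxifen. This drug was injected into the mice as pups, weeks before their ECs were isolated and cultured. Wells of a culture experiment served as replicates, 2 per experiment, with brains of several mice pooled. The main tests had no term for experiment, so their p-values measure the spread between experiments, wells and sorts together. They count the 2 wells of an experiment as independent, although such wells were far more alike than wells of different experiments. ATAC-seq, which maps accessible chromatin, was available for the acutely isolated ECs (2 libraries), the WT cultures (6) and the stabilized cultures (2).

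Library totals ran from 24284843 to 94686456 estimated counts. The acutely isolated libraries were read as single reads of 75 cycles and the cultures as read pairs, so read type and culture cannot be told apart. Mitochondrial genes took 10.6% to 24.2% of counts in the acutely isolated libraries and 0.667% to 2.58% in the cultures. The label of the sorted ECs was checked with 6 endothelial markers, whose summed level was 2359 to 2978 TPM in acutely isolated ECs, 98.3 to 106 TPM in GFP-negative cells, 1229 to 3523 TPM in WT cultures and 1489 to 4739 TPM in stabilized cultures. Pericyte markers summed to 256 to 399 TPM in acutely isolated ECs, 245 to 494 TPM in GFP-negative cells and 2.43 to 12.5 TPM in the cultures. In bulk libraries, fewer cells of a type and less RNA per cell cannot be told apart.

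S1P is made from sphingosine inside the cell by the sphingosine kinases, leaves endothelial cells through the exporter Spns2, and acts on G protein-coupled receptors, of which S1P receptor 1 is known for keeping endothelial junctions closed. LPA is made mostly outside the cell by autotaxin (Enpp2) and acts on its own receptors. Plpp1 and Plpp3 are membrane phosphatases that remove the phosphate from LPA and S1P outside the cell and so end the signal.

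Sequences are shown for accessible regions that differed between acutely isolated and cultured ECs near 3 of the genes, and for 250 bases upstream of the start of both LPA receptors. Transcripts of Plpp1, Lpar4 and Lpar6 were called higher in culture, as described further on, whereas Spns2 was not called. Other regions that differed, such as that at Sphk1, are not printed. The sequences shown are thus a selection. They were read from the RefSeq GRCm38.p6 genome and promoter table, are given 5′ to 3′, and capitals mark matches on either strand to 6 letter sets: CACCC (KLF), GGAATG (TEAD), TGANTCA (AP-1), CTTTGA (TCF/LEF), CCGGAA (ETS) and GGGCGG (SP), where the last letters of the ETS set overlap the first of the TEAD set. A region in an intron of Plpp1, centred 10044 bases from the gene's start, was open in all 8 cultured libraries and in neither acutely isolated library. The same was true of a region 29224 bases downstream of the Lpar4 start and of a region in an intron of Spns2. A second intronic region of Spns2 was open in both acutely isolated libraries and in no cultured library.
Plpp1 intron, cultured (chr13:112810784-112811083, plus strand): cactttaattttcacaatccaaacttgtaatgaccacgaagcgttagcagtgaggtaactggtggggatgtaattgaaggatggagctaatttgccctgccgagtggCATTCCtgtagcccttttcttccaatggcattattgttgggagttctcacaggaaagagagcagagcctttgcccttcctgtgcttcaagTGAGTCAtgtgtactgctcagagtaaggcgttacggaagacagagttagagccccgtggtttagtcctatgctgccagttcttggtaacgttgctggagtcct
Lpar4 distal, cultured (chrX:106949585-106949884, plus strand): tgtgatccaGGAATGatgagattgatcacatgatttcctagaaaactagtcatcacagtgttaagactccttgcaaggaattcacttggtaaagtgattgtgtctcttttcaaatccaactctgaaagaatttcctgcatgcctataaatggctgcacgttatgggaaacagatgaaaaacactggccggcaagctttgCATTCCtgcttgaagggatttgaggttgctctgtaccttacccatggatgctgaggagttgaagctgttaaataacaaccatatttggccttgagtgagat
Spns2 intron, cultured (chr11:72478255-72478554, plus strand): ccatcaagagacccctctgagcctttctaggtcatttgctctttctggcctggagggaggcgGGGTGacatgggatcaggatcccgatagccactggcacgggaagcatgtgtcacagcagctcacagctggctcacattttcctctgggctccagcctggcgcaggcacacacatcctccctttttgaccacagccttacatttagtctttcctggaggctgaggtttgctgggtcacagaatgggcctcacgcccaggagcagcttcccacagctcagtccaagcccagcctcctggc
Spns2 intron, acute (chr11:72475473-72475772, plus strand): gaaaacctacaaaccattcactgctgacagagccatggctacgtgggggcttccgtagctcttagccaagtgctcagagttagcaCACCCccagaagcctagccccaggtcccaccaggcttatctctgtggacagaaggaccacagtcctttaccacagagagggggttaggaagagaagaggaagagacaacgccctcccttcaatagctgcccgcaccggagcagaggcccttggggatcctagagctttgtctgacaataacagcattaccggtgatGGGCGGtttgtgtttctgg
Lpar4 upstream (chrX:106920375-106920624, plus strand): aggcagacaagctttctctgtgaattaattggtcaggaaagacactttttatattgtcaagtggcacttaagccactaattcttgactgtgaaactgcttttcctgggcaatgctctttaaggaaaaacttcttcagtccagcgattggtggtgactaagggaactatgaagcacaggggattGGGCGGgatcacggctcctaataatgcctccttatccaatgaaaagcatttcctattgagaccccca
Lpar6 upstream (chr14:73237641-73237890, plus strand): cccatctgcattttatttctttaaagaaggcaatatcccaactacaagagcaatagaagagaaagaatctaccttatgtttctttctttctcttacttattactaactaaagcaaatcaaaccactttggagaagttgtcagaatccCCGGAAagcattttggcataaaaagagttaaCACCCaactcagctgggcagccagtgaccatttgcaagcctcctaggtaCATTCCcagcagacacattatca

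The Plpp1 region holds 1 AP-1 match and 1 TEAD match, and the Lpar4 distal region holds 2 TEAD matches. The Spns2 regions hold a KLF match each, and the acute one also an SP match. The Lpar4 upstream sequence holds an SP match only, whereas that of Lpar6 holds 1 match each for ETS, KLF and TEAD. A match says only that these letters are present. Over all 32851 promoters of 300 bases, 57.5% hold the KLF letters, 35.7% SP, 16.0% TCF/LEF, 14.9% ETS, 14.7% TEAD and 7.81% AP-1. S1pr1 and Plpp1 had no entry in the promoter table, and the other 8 genes had at least 1.

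The receptors for S1P came first. S1pr1 lies on the minus strand at chr3:115710433-115715072 (GRCm38, as are all coordinates here) and was measured as 1 protein-coding transcript. Its level was 48.2 and 61.1 TPM in acutely isolated ECs and 37.3 and 89.9 TPM in GFP-negative cells. In WT cultures it was 201, 288, 642, 604, 173 and 203 TPM in replicates 1 to 6. All 6 cultures lay above both acutely isolated libraries, and replicates 3 and 4 lay above the other 4. The mean rose from 54.7 ± 9.10 TPM (SD, n = 2) to 352 ± 214 TPM (n = 6), a 6.44-fold difference of means. On the count scale, however, the log2 fold change was 0.87 (SE 0.33, edgeR adjusted p = 0.0576), below the threshold. With an offset for transcript length it was 1.89 (adjusted p = 0.00278) and S1pr1 passed. It also passed on the TPM scale, with log2 fold changes of 2.46 and 2.48 (limma, adjusted p = 0.0116 and 0.0094 with 1 and 0.1 added to the TPM). In rank by mean TPM, S1pr1 stood above 94.3% of genes in acutely isolated ECs and above 98.7% in WT cultures.

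The 2 scales differ because TPM divides each count by the effective length of the transcript, and effective lengths were longer in the paired-read cultures for most genes. Over 9518 genes the median log2 ratio of effective length, culture over acute, was 1.055 (5th to 95th percentile 0.065 to 2.374). For S1pr1 it was 0.022, for Lpar4 0.080, for Lpar6 0.188, for Plpp3 0.210, for Sphk2 0.757, for Plpp1 1.022, for S1pr2 1.494, for Spns2 1.822 and for S1pr3 0.132. Sphk1, with 1 count in acutely isolated ECs, alone had a shorter length in culture (−0.681). The genes with little shift in length, which include S1pr1, both LPA receptors and Plpp3, came out higher in culture with a correction for length than without it. On the limma TPM scale the median of all genes was itself 0.55 (1 added) and 0.7 (0.1 added), against 0.1 by scaled counts, so that TPM differences are read against that shift. A call required an adjusted p under 0.05 by the quasi-likelihood test of edgeR (Benjamini-Hochberg adjustment), a log2 fold change beyond 1 in either direction, and at least 5 TPM in each library of the higher group.

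**Figure D1:**
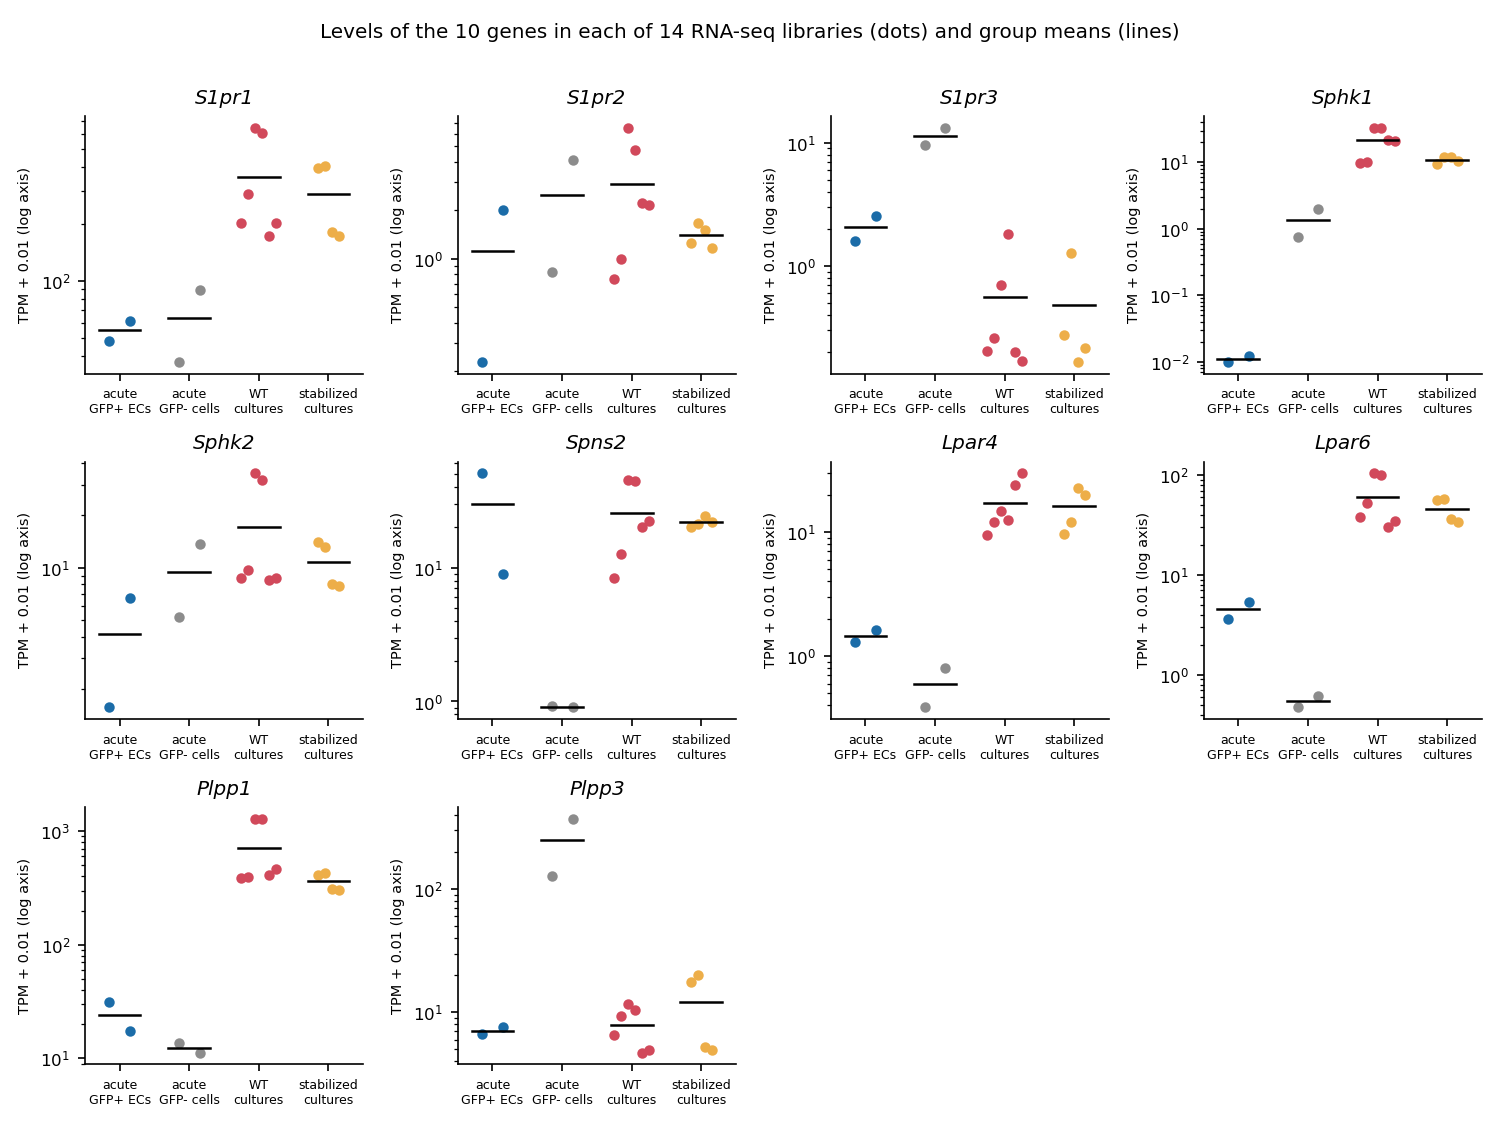
TPM plus 0.01 (log axis) of the 10 genes in each RNA-seq library (dots) of the 4 groups, with group means as lines. Sphk1 sits at 0 and 0.00236 TPM in acutely isolated ECs and from 9.58 to 32.9 TPM in the cultures, and Plpp1 rises from 17.4 to 31.2 TPM to at least 302 TPM.

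S1pr2 and S1pr3 were minor receptors in ECs. S1pr2 (chr9:20962361-20976781, minus strand), a receptor known to couple to several G proteins, was at 0.218 and 2.01 TPM in acutely isolated ECs. In WT cultures it lay between 0.740 and 6.49 TPM, so that the groups overlapped. Its log2 fold change of 1.81 (SE 0.58, edgeR adjusted p = 0.0322) passed the test but not the TPM minimum, and it was 0.76 (adjusted p = 0.422) with the length offset. S1pr3 (chr13:51408639-51422797, plus strand), a receptor known from smooth muscle and other perivascular cells, was at 1.58 and 2.52 TPM in acutely isolated ECs, 9.51 and 13.2 TPM in GFP-negative cells, and 0.192, 0.249, 0.694, 1.81, 0.189 and 0.158 TPM in WT cultures. In TPM, WT replicate 4 reached the level of the acutely isolated ECs, whereas the other 5 lay below both. In scaled counts all 6 lay below, with replicate 4 at 5.06 CPM (counts per library size, after TMM scaling) against 26.2 and 26.3 CPM. The log2 difference of cultures from acutely isolated ECs was −3.77 (SE 0.58, edgeR adjusted p = 0.00119), short of a call through the TPM minimum alone. Against GFP-negative cells, the log2 difference of the acutely isolated ECs was −2.14 (SE 0.35, edgeR adjusted p = 0.00871), which was called; on the TPM scale the call was lost (limma adjusted p = 0.0672 and 0.0683).

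Markers of other cell types differed between the same groups, though not all in the direction of S1pr3. Of 5 pericyte markers, all 5 were called lower in WT cultures than in acutely isolated ECs, with a median log2 fold change of −8.52, but 0 of 5 were called between GFP-positive and GFP-negative cells (median 0.38). Of 4 smooth muscle markers, all 4 were called lower in acutely isolated ECs than in GFP-negative cells (median −4.05), as S1pr3 was, whereas in WT cultures against acutely isolated ECs 3 were called higher (Acta2 3.11, Tagln 5.51 and Cnn1 4.15) and Myh11 lower (−4.40). Their summed level was 214.5 to 233 TPM in acutely isolated ECs, 3585 to 5266 TPM in GFP-negative cells and 501 to 3068 TPM in WT cultures. Astrocyte markers summed to 679 to 1430 TPM in GFP-negative cells, 75.9 to 465.6 TPM in acutely isolated ECs and 3.36 to 45.8 TPM in WT cultures, where 3 of 5 stayed under 0.1 TPM in every library. The part of these cells in the S1pr3 result was not tested. S1pr3 and the kinase genes overlap genes on the opposite strand (Gm32834 at S1pr3, Gm29292 at Sphk1, Dbp and Rpl18 at Sphk2), and Salmon was set to detect the library type and to leave out incompatible mappings. Whether the libraries were stranded was not given in the sources used here, and if they were not, reads of the partners cannot be told apart. The same holds for Spns2 and Mybbp1a, Lpar6 and Rb1, and Plpp1 and Mtrex.

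As a share of the summed TPM of the 5 S1P receptor genes, S1pr1 made up 82.1% to 90.5% in acutely isolated ECs and 97.9% to 98.1% in WT cultures. In GFP-negative cells it made up 66.3% to 80.7%, with S1pr3 at 11.8% to 16.9%. S1pr4, known mainly from blood cells, took 6.03% to 11.8% in acutely isolated ECs, at 3.21 and 8.81 TPM. Markers of erythrocytes summed to 4751 to 31510 TPM in the same 2 libraries, 1104 to 10950 TPM in GFP-negative cells and at most 1.39 TPM in the cultures. S1pr4 itself was at 0.191 and 0.195 TPM in GFP-negative cells, 1.39 to 6.43 TPM in WT cultures and 2.47 to 5.02 TPM in stabilized cultures. The part of blood cells in its share was not tested.

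The LPA receptors moved in the same direction. Lpar4 (chrX:106920625-106933900, plus strand) and Lpar6 (chr14:73237895-73243294, plus strand, in an intron of Rb1 on the opposite strand) belong to the P2Y-related LPA receptors, which are known for a joint role in the growth of blood vessels. Lpar4 was at 1.29 and 1.61 TPM in acutely isolated ECs and at 9.42, 12.0, 14.6, 12.4, 24.1 and 29.7 TPM in WT cultures. All 6 cultures lay above both acutely isolated libraries, and replicates 5 and 6 were highest. Lpar6 was at 3.65 and 5.39 TPM in acutely isolated ECs and at 38.1, 52.7, 104, 99.3, 30.4 and 35.1 TPM in WT cultures, again without overlap. By counts, Lpar4 rose by a log2 fold change of 1.94 (SE 0.52, edgeR adjusted p = 0.015) and Lpar6 by 2.17 (SE 0.47, adjusted p = 0.00573). With the length offset the changes were 3.12 and 2.99, with adjusted p values of 0.0116 and 0.000293. The Lpar4 call was lost without acute replicate 1 (log2 fold change 2.12) and also without acute replicate 2 (1.74). The Lpar6 call was lost without acute replicate 2 (2.11) but kept without acute replicate 1.

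Neither LPA receptor was called between acutely isolated ECs and GFP-negative cells, although TPM ranges did not overlap for either, as for 57.2% of all genes. Lpar6 was at 0.463 and 0.605 TPM and Lpar4 at 0.376 and 0.787 TPM in GFP-negative cells, below both EC libraries. The log2 fold change of GFP-positive over GFP-negative cells was 3.38 for Lpar6 (SE 0.49, edgeR adjusted p = 0.00558), which failed only the TPM minimum, and 1.77 for Lpar4 (SE 0.65, adjusted p = 0.0914). The summed TPM of 6 LPA receptor genes was close between the groups, at 5.67 to 7.04 in ECs and 4.96 to 5.83 in GFP-negative cells, but its make-up differed. Lpar6 held 64.4% to 76.6% of it in ECs, whereas Lpar1 held 62.2% to 76.9% in GFP-negative cells. In WT cultures the sum reached 47.8 to 122 TPM, of which Lpar6 held 53.9% to 86.7% and Lpar4 10.8% to 45.6%.

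**Figure D2:**
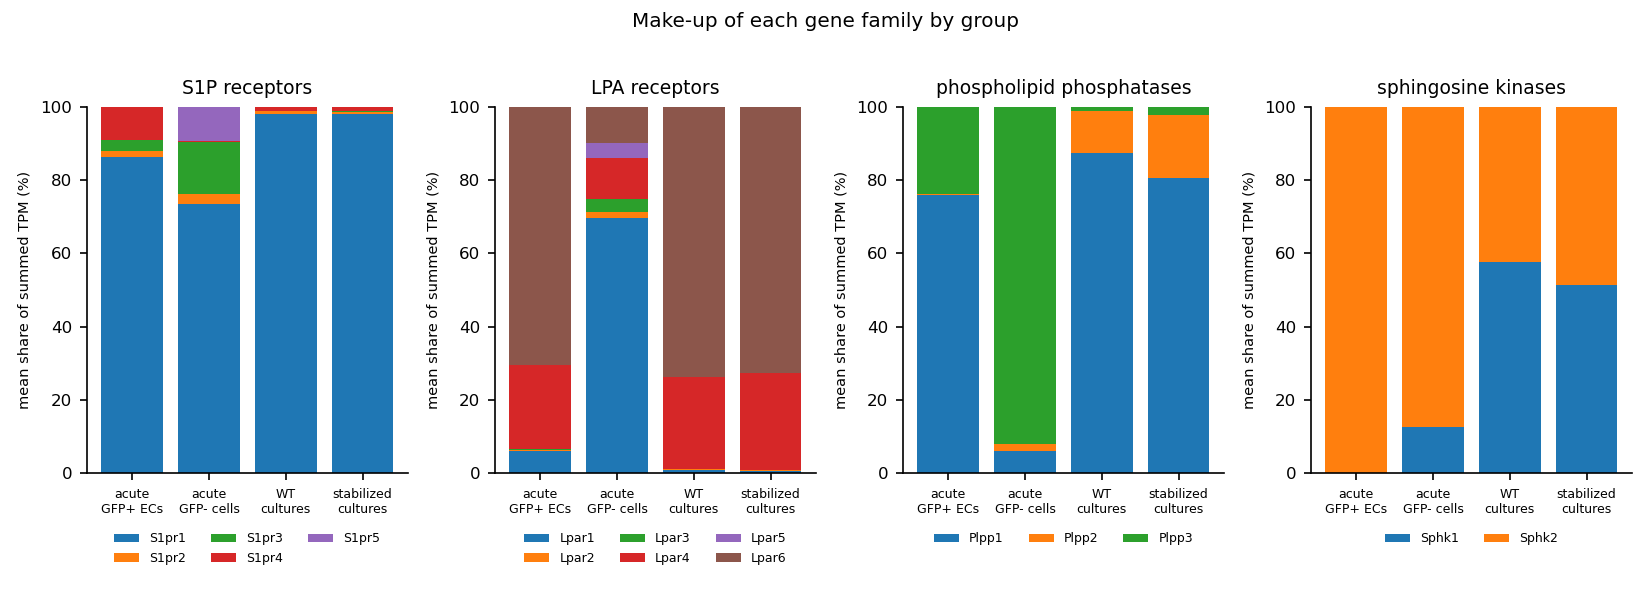
Mean share (%) of the summed TPM of each gene family in the 4 RNA-seq groups, as stacked bars that add up to 100. S1pr1 leads the S1P receptors in each group, and Lpar1 leads the LPA receptors in GFP-negative cells only. Sphk1 holds 12.6% of the kinases in GFP-negative cells, 57.6% in WT cultures and 51.4% in stabilized cultures.

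The sharpest difference was in Sphk1 (chr11:116530925-116536674, plus strand), the kinase that is induced by many growth factors. It had 0 counts and 1 count in the acutely isolated EC libraries, and a count of 0 allows up to 3 counts. Its level was 0.737 and 2.01 TPM in GFP-negative cells and 9.84, 10.0, 32.9, 32.3, 21.9 and 20.98 TPM in WT cultures. Summed over libraries, the WT cultures had 7256 counts (31.3 CPM, counts scaled to library size) against 1 in acutely isolated ECs (0.00665 CPM), a ratio of 4710 with a 95% exact counting interval of 845 to 186000. The interval covers counting error only. The fitted log2 fold change of 11.33 (SE 0.97, edgeR adjusted p = 0.000104), which depends on the prior count, was called. The lone count fell on Sphk1-208, a transcript with a retained intron, whereas in WT cultures the coding transcript Sphk1-204 alone held 14.3% to 48.1% of the gene's TPM. Against GFP-negative cells, with 296 counts (2.32 CPM), the fitted log2 difference of the ECs was −7.76 (SE 1.55, edgeR adjusted p = 0.0151), not called because of the TPM minimum.

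Sphk2 (chr7:45709467-45718002, minus strand), the kinase found mostly in the nucleus and mitochondria, rose less. It was at 1.55 and 6.67 TPM in acutely isolated ECs and at 8.69, 9.74, 35.0, 32.2, 8.43 and 8.67 TPM in WT cultures. The cultures lay above both acute libraries, of which the higher was close to the lowest culture. The log2 fold change was 1.46 (SE 0.30, edgeR adjusted p = 0.00479) and was called, but it was not on the TPM scale (1.76 and 2.06, limma adjusted p = 0.0767 and 0.0581). The assignment to transcripts was uneven, since Sphk2-204, a model of 395 bases, took 0% and 55.8% of the TPM in the 2 acutely isolated EC libraries, 53.9% to 91.9% in GFP-negative cells and 0% in all cultures. With Sphk1 rising from nearly nothing, Sphk1 held 48.5% to 72.3% of the TPM of both kinases in WT cultures against at most 0.0354% in acutely isolated ECs.

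Spns2 (chr11:72451638-72489904, minus strand), the endothelial S1P exporter, did not separate cultures from acutely isolated ECs. Its acutely isolated libraries stood at 50.5 and 8.96 TPM, a ratio of 5.63, where the median gene with 5 TPM or more had 1.96. WT cultures lay at 8.41, 12.5, 44.8, 44.4, 20.2 and 22.3 TPM, across the same range. The log2 fold change was 0.07 (SE 0.51, edgeR adjusted p = 0.926) and its sign changed between settings, to −1.23 with the length offset. In acutely isolated ECs a non-coding model, Spns2-206, took 45.2% and 89.2% of the gene's TPM, whereas the coding transcript Spns2-201 took 94.3% to 100% in WT cultures. Against GFP-negative cells, at 0.918 and 0.895 TPM, the ECs were higher by a log2 fold change of 3.66 (SE 1.07, edgeR adjusted p = 0.0464). That call was lost without acute replicate 1 (2.28, adjusted p = 0.178) and without GFP-negative replicate 2 (2.89, adjusted p = 0.0872).

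Plpp1 rose in culture, whereas the size of the Plpp3 change depended on the scale. Plpp1 (chr13:112800792-112867894, plus strand) was at 31.2 and 17.4 TPM in acutely isolated ECs and 13.5 and 11.2 TPM in GFP-negative cells. In WT cultures it was at 386, 396, 1288, 1283, 416 and 462 TPM, and its rank by mean TPM moved from above 86.8% of genes to above 99.4%. Every culture exceeded every acutely isolated library by a wide margin. The log2 fold change was 3.96 (SE 0.66, edgeR adjusted p = 0.00172) and 3.94 with the length offset. Plpp1 was called in each setting run for this comparison.

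Plpp3 (chr4:105157347-105232764, plus strand), a phosphatase known to be abundant in astrocytes and other non-endothelial brain cells, was by far highest outside the endothelium, at 129 and 372 TPM in GFP-negative cells. Acutely isolated ECs had 6.65 and 7.58 TPM, a log2 difference of −4.67 (SE 0.51, edgeR adjusted p = 0.00267). WT cultures had 6.49, 9.28, 11.7, 10.5, 4.70 and 4.97 TPM, on both sides of the acutely isolated ECs. The count-based log2 fold change was −1.34 (SE 0.30, edgeR adjusted p = 0.0073) and was called lower. With the length offset it was −0.52 (edgeR adjusted p = 0.212) and not called. On the TPM scale it was 0.07 (limma, adjusted p = 0.919), where the median of all genes was 0.55. Its size and its call thus depended on how transcript length was handled, and its sign changed on the TPM scale only. The call was also lost without acute replicate 1 (−1.14, adjusted p = 0.0541). The astrocyte markers were again highest in GFP-negative cells, with all 5 called lower in ECs, and their part in the Plpp3 result was not tested. As shares of the TPM of the 3 phosphatases, Plpp3 held 87.9% to 95.99% in GFP-negative cells, 17.5% to 30.3% in acutely isolated ECs and 0.689% to 2.06% in WT cultures, while Plpp1 held 69.3% to 82.3% in acutely isolated ECs and 84.3% to 90.4% in WT cultures.

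Because the list was chosen with earlier results of these data known, the shares below describe it and test no enrichment. Across the list, 6 of 10 genes were called between WT cultures and acutely isolated ECs, where 23.8% of 13785 genes tested were called. Of these, 5 were higher (Sphk1, Sphk2, Lpar4, Lpar6, Plpp1), against 13.5% of genes, and 1 was lower (Plpp3), against 10.2%. Over all genes the split was 1866 higher and 1409 lower, and it was 1782 and 1815 with the length offset and 1928 and 929 with limma on log2(TPM + 0.1). TPM values of the groups did not overlap for 6 of 10 genes, against 48.4% of genes. By adjusted p alone 8 of 10 passed, against 45.2%. The median log2 fold change was 1.63 for the 10 genes and 0.1 for all genes tested. Of acutely isolated cells, GFP-positive ECs differed from GFP-negative cells at 3 of 10 genes, against 15.9% of 15101 genes. Spns2 was called higher, against 8.3% of genes, and S1pr3 and Plpp3 lower, against 7.56%. Over all genes the split was 1253 higher and 1142 lower, and it turned to 930 and 1419 with library-size scaling and to 639 and 1092 with limma on log2(TPM + 1). By adjusted p alone 6 of 10 passed, against 29.6%, and 7 of 10 did not overlap, against 57.2%. S1pr1 was not among them, with a log2 fold change of 0.23 (SE 0.37, edgeR adjusted p = 0.686), nor were Plpp1 at 0.98 (SE 0.65, adjusted p = 0.312) and Sphk2 at 0.03 (SE 0.57, adjusted p = 0.976).

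**Figure D3:**
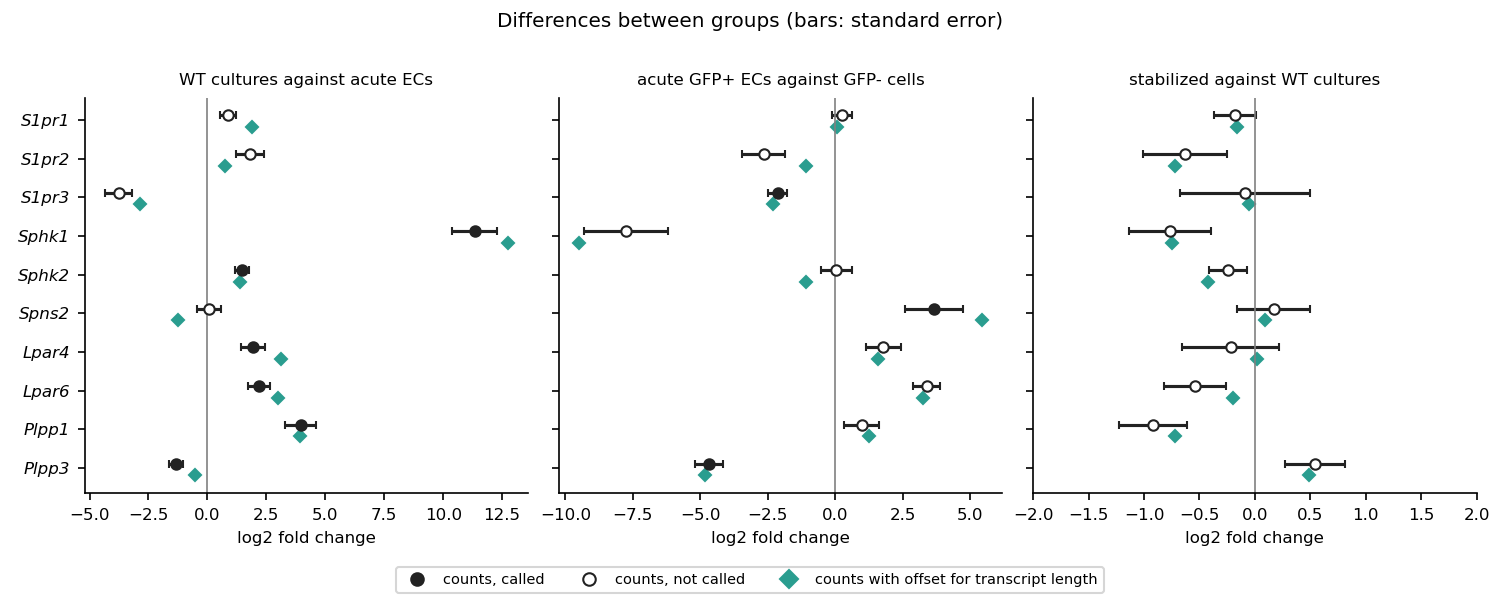
Log2 fold change of each gene in 3 comparisons (circles with standard errors, filled where called; diamonds, with an offset for transcript length). Sphk1 lies at 11.33 in WT cultures against acutely isolated ECs, the diamond of S1pr1 moves to 1.89 and that of Spns2 to −1.23, and no circle is filled for stabilized against WT cultures.

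The WT cultures were not uniform. For 9 of the 10 genes the experiment with replicates 3 and 4, which alone had 150-cycle reads from another facility, had the highest mean TPM, and for Lpar4 the experiment with replicates 5 and 6 was highest (means of 10.7, 13.5 and 26.9 TPM). In TMM-scaled counts replicates 3 and 4 were highest for 6 genes only. Sphk1 (51.6 and 47.0 CPM against 27.9 and 30.4 CPM), Spns2 (83.0 and 90.4 CPM against 67.5 and 71.4 CPM) and Lpar4 were highest in replicates 5 and 6, and Plpp3 was lowest in replicates 3 and 4 (18.1 and 17.1 CPM) and highest in replicates 1 and 2 (28.6 and 30.7 CPM). The ratio of the highest to the lowest experiment in mean TPM ran from 2.29 for Plpp3 to 6.42 for S1pr2 and 6.88 for S1pr3, with 3.32 for S1pr1, 3.93 for Sphk2 and 4.25 for Spns2, where the median over 9256 genes was 3.13. The ratio of S1pr2 was above that of 83.95% of these genes. Replicates 3 and 4 share their genotype and, by the Methods, their isolation with replicates 5 and 6, so that experiment, facility and read length cannot be told apart between them. Replicates 1 and 2 differ from both in genotype as well. Between wells of 1 experiment, the largest ratio for S1pr1 was 1.43. Restricting the WT cultures to method A kept 5 calls (all higher) and to method B kept 6.

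Stabilized cultures were compared with WT cultures to ask whether stabilized beta-catenin shifts these genes in culture. The paper found genes regulated by beta-catenin extremely low in the stabilized cultures too. It took this to imply that the signaling was not activated, so the comparison does not set active against inactive signaling. S1pr1 was at 394, 405, 180 and 173 TPM in replicates 1 to 4, Lpar4 at 9.71, 12.1, 22.6 and 19.9 TPM and Lpar6 at 57.0, 58.0, 36.1 and 34.3 TPM. Sphk1 was at 9.58, 11.9, 12.2 and 10.3 TPM, Plpp1 at 410, 427, 311 and 302 TPM and Plpp3 at 17.7, 20.3, 5.2 and 4.91 TPM. Replicates 1 and 2 (method A) and replicates 3 and 4 (method B) fell into pairs for S1pr1, Lpar4, Lpar6, Plpp1 and Plpp3, and each gene overlapped the WT range.

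None of the 10 genes was called, by edgeR or by DESeq2, where edgeR called 0% of 12959 genes and DESeq2 called 14 higher and 3 lower. At an unadjusted p under 0.05, edgeR had 1343 genes (10.4%), 1 of them in the list. That gene was Plpp1, with a log2 difference of −0.92 in the stabilized cultures (SE 0.31, edgeR adjusted p = 0.426). Sphk1 followed at −0.77 (SE 0.37, adjusted p = 0.495). The groups overlapped for all 10 genes, and 0.725% of genes did not overlap. An interval of 2 SE around the difference reaches past the 2-fold minimum for 7 of the 10 genes, all but S1pr1, Sphk2 and Spns2, so changes of that size were not excluded for them.

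Within method A (2 wells against 2), the log2 difference of stabilized wells was −0.87 for Sphk1 (edgeR adjusted p = 0.00282), −0.82 for Lpar4 (adjusted p = 0.00169), −0.60 for Plpp1 (adjusted p = 0.00582), −0.44 for Lpar6 (adjusted p = 0.00295) and 0.50 for Plpp3 (adjusted p = 0.0032). Within method B at 36 cycles, it was −0.85 for Sphk1 (edgeR adjusted p = 0.00147), −0.53 for S1pr2 (adjusted p = 0.00898), −0.44 for Plpp1 (adjusted p = 0.00263) and 0.26 for Spns2 (adjusted p = 0.0187). All of these lie under the 2-fold minimum, and each sets 1 experiment against 1 other, so a difference between experiments and a difference between genotypes cannot be told apart. Sphk1 and Plpp1 were lower within both methods in scaled counts. In TPM this held for method B only, since in method A Plpp1 was at 386 and 396 TPM in WT and 410 and 427 TPM in stabilized wells, and Sphk1 at 9.84 and 10.0 against 9.58 and 11.9 TPM. A test of the interaction of stabilization with isolation method passed for 3 of the 10 genes (Lpar4, Lpar6 and Plpp3), against 49.6% of 13357 genes. It rests on WT replicates 5 and 6 being of method B, and the WT wells of the methods also differ in genotype.

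Stabilized cultures differed from acutely isolated ECs much as WT cultures did, using the same 2 acutely isolated libraries. The 5 genes called higher were Sphk1 (3852 counts against 1, a ratio of 2500 with an exact 95% counting interval of 448 to 98600), Sphk2 (log2 fold change 1.22, SE 0.21, edgeR adjusted p = 0.0031), Lpar4 (1.72, SE 0.61, adjusted p = 0.0485), Lpar6 (1.65, SE 0.16, adjusted p = 0.000395) and Plpp1 (3.06, SE 0.48, adjusted p = 0.0023), where 15.1% of genes were called higher and 26.1% in either direction. Over all genes 2091 were higher and 1528 lower, with the length offset 1990 and 2031, and 2399 and 915 with limma on log2(TPM + 1). By adjusted p alone 7 of 10 genes passed, against 56.7% of genes, and TPM ranges did not overlap for 7 of 10, against 56.4%. S1pr1 was higher by 0.70 (SE 0.20, adjusted p = 0.0226), under the 2-fold minimum, and by 1.73 (adjusted p = 0.00134) with the length offset. The Lpar4 call was lost without either acutely isolated library (adjusted p = 0.125 and 0.181) and without stabilized replicate 3 or 4 (0.0889 and 0.0938).

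In the order of mean TPM over the 4 groups, WT cultures came first and stabilized cultures next for S1pr1, Sphk1, Sphk2, Lpar4, Lpar6 and Plpp1, and the ranges of both culture groups overlapped for all 6. For S1pr1 and Sphk1 the GFP-negative cells came next and acutely isolated ECs last, overlapping for S1pr1 and apart for Sphk1. For Lpar4, Lpar6 and Plpp1 the acutely isolated ECs came next and GFP-negative cells last, apart in each. S1pr3 and Plpp3 were highest in GFP-negative cells, apart from the next group. Spns2 was highest in acutely isolated ECs by mean, overlapping both culture groups, and lowest in GFP-negative cells, apart from the rest. S1pr2 and Sphk2 overlapped between all neighbors.

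Genes around the 10 were counted in 4 lists of 48 genes, which were also chosen with earlier results of these data known. Of these, 42 were tested between WT cultures and acutely isolated ECs. Of the 42, 6 were called higher and 7 lower, against 13.5% and 10.2% of all genes. Of 11 genes for the production, transport and breakdown of lysophospholipids, 10 were tested between WT cultures and acutely isolated ECs, 2 were called higher and 3 lower. Plpp2, the phosphatase related to Plpp1, was higher by a log2 fold change of 9.60 (SE 0.87, edgeR adjusted p = 0.000124), from 0.069 to 0.0947 TPM to 34.3 to 228 TPM. Sgpl1, the lyase that irreversibly cleaves S1P, was higher by 2.17 (SE 0.48, adjusted p = 0.00654). Sgpp2, an S1P phosphatase of the endoplasmic reticulum, fell from 10.9 to 16.1 TPM to at most 0.132 TPM (−9.44, SE 0.56, adjusted p = 2.45e-05). Mfsd2a, the transporter of lysophosphatidylcholine at the blood-brain barrier, fell from 210 to 312 TPM to at most 2.88 TPM (−7.46, SE 0.48, adjusted p = 3.29e-05), and Enpp2, which makes LPA, fell as well (−2.62, SE 0.90, adjusted p = 0.0398).

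Of 13 genes of sphingosine and ceramide synthesis, all 13 were tested, 2 were called higher and 2 lower. The dihydroceramide desaturases moved in opposite directions: Degs1 rose from 21.9 to 34.1 TPM to 97.3 to 311 TPM (2.11, SE 0.39, edgeR adjusted p = 0.00272), while Degs2 fell from 43.8 to 56.5 TPM to 0.290 to 0.713 TPM (−7.67, SE 0.55, adjusted p = 4.83e-05). Asah1, the acid ceramidase that releases sphingosine, rose from 8.00 to 36.3 TPM to 84.5 to 219 TPM (2.59, SE 0.47, adjusted p = 0.00259). Cers4, a ceramide synthase, was called lower by counts (−1.20, SE 0.32, adjusted p = 0.0143), though its TPM went up from 13.7 to 31.5 to 24.8 to 64.7, so its direction depended on the scale.

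Of 15 genes that couple the receptors to the cell, all 15 were tested, 2 were called higher and 2 lower. Gnai1, a Gi alpha subunit, rose from 0.375 to 0.400 TPM to 6.88 to 57.9 TPM (4.96, SE 0.92, edgeR adjusted p = 0.00281), and Gna12, another G protein alpha subunit, rose by 2.18 (SE 0.46, adjusted p = 0.00537). The guanine nucleotide exchange factor genes Arhgef12 (−2.39, SE 0.75, adjusted p = 0.0291) and Arhgef11 (−1.60, SE 0.45, adjusted p = 0.019) were lower. Of 9 lysophospholipid receptor genes outside the 10, 4 were tested and 0 were called in either direction. None of the 48 genes of the 4 lists was called between stabilized and WT cultures.

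In the same lists, GFP-positive ECs differed from GFP-negative cells at 16 of 45 genes tested, against 15.9% of all genes, and 11 of them were higher, against 8.3%. Degs2 (log2 fold change 11.52, SE 0.91, edgeR adjusted p = 0.00172) and Acer2, an alkaline ceramidase (7.45, SE 0.58, adjusted p = 0.00171), were at most 0.0319 and 0.682 TPM in GFP-negative cells. Mfsd2a (5.23, SE 0.55, adjusted p = 0.00245) and Sgpp2 (3.97, SE 0.80, adjusted p = 0.0156) were also higher in ECs. Enpp2 (−3.33, SE 0.87, adjusted p = 0.0341) and Gpr34, a receptor known from microglia (−7.27, SE 1.47, adjusted p = 0.0156), were lower.

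**Figure D4:**
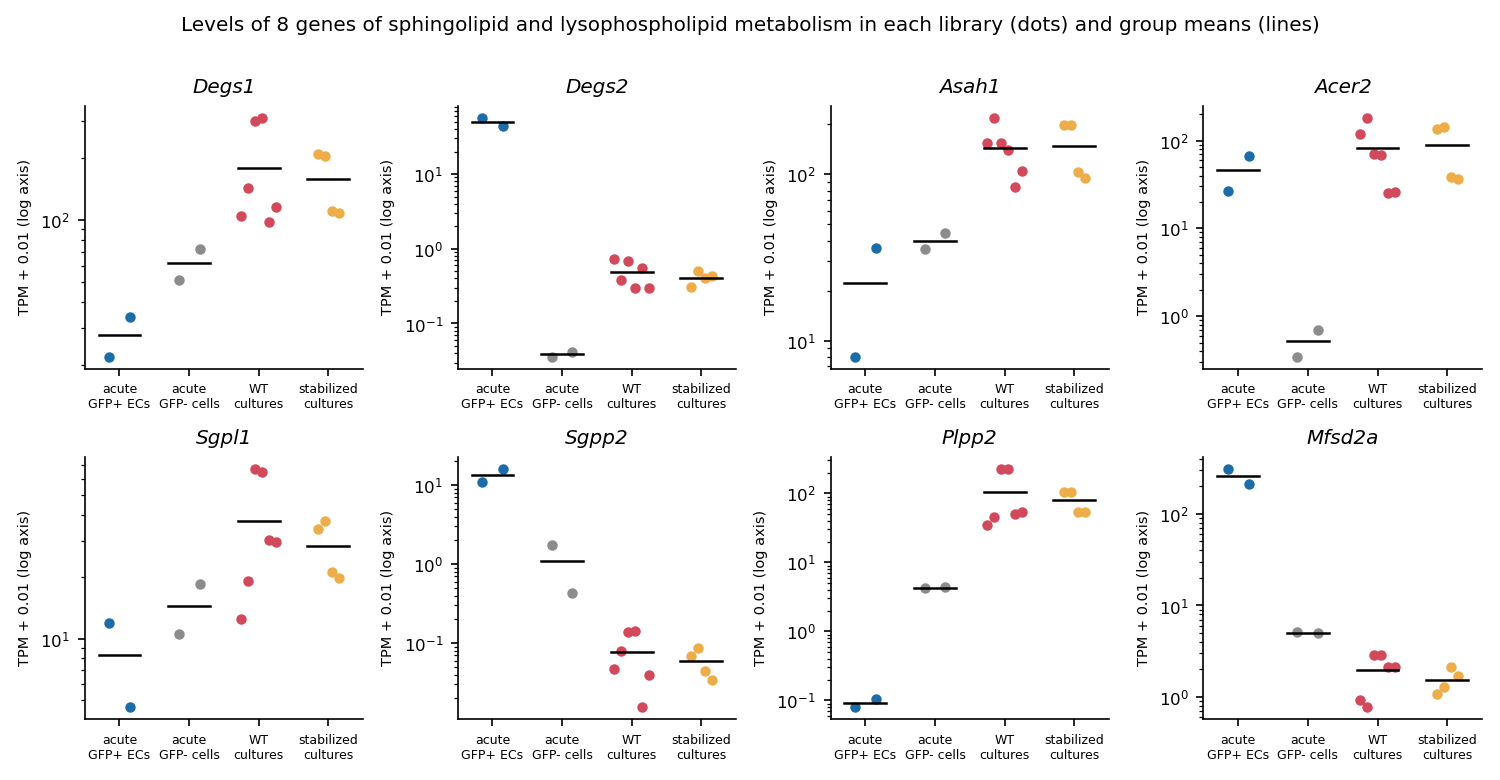
TPM plus 0.01 (log axis) of 8 genes of sphingolipid and lysophospholipid metabolism in each RNA-seq library (dots) of the 4 groups, with group means as lines. Degs2, Sgpp2 and Mfsd2a stand at least at 43.8, 10.9 and 210 TPM in acutely isolated ECs and at most at 0.713, 0.132 and 2.88 TPM in cultures, whereas Degs1, Asah1 and Plpp2 stand higher in cultures.

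Most of the 10 start sites were accessible in every library. Within 1000 bases of a start site, 7 of the 10 genes had an ATAC-seq peak in all 10 libraries, against 51.0% of 21820 genes. A peak was present in both acutely isolated libraries for 9 genes (54.8% of all genes), in all 6 WT cultures for 8 (53.9%) and in both stabilized cultures for 9 (62.6%). Plpp1 had a fold enrichment of 19.2 and 19.3 over local background in acutely isolated ECs and 11.9 to 16.3 in WT cultures. Spns2 had 16.3 and 18.3 in acutely isolated ECs and 6.27 to 15.9 in WT cultures. At Lpar4 the enrichment was 4.85 and 5.16 in acutely isolated ECs and 4.69 to 14.4 in WT cultures, and at Lpar6 it was 9.95 and 10.6 against 7.15 to 9.60. S1pr1 had 13.98 and 14.4 in acutely isolated ECs and 9.65 to 14.2 in WT cultures. Enrichments were called per library by the authors and were not scaled between libraries, so their sizes are given as values and not tested.

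The 3 exceptions were S1pr2, S1pr3 and Sphk1. At Sphk1 a start-site peak was listed in 1 of 2 acutely isolated libraries (3.30), in all 6 WT cultures (3.64 to 8.96) and in both stabilized cultures (5.92 and 7). At S1pr3 it was listed in both acutely isolated libraries (3.13 and 3.28) but in 1 of 6 WT cultures (replicate 4, 4.13) and 1 of 2 stabilized cultures (replicate 2, 3.34). At S1pr2 it was missing from 1 of 6 WT cultures. A start-site peak in all 8 cultured libraries and neither acutely isolated one was seen for 0 of the 10 genes and 1.85% of all genes, and the opposite pattern for 0 of the 10 and 0.243% of all genes.

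Peaks of the 10 libraries were merged into 126307 regions, and those from 20000 bases before to 20000 bases after each gene were classed by the libraries with a peak. Of 94 regions near the 10 genes, 16 (17.0%) were open in all 10 libraries, against 13.4% of all regions, 7 (7.45%) in all 8 cultured libraries and neither acutely isolated one, against 8.01%, and 5 (5.32%) in both acutely isolated libraries and no culture, against 2.84%. The acutely isolated libraries had 31844 and 37453 peaks and the cultures 33152 to 98840, so a region missing from the former may lie below their detection.

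The regions open only in cultures lay at Plpp1 (2), S1pr2 (2, inside the neighboring gene Dnmt1), Sphk1, Lpar4 and Spns2. The Plpp1 region printed above had an enrichment of 12.4 to 17.1 in WT cultures and 15.4 and 16.0 in stabilized cultures, as high as its start site, and a second intronic region 61239 bases from the start had 4.69 to 9.78 in WT cultures. The Lpar4 distal region had 8.39 to 16.5 in WT cultures. The Spns2 region open in cultures had 4.82 to 14.7 and lay 11553 bases from the start, and the one open only in acutely isolated ECs, 14268 bases from the start, had 2.80 and 4.44. The Sphk1 region, over an exon and centred 2565 bases from the gene start, had 3.63 to 8.96, and it reaches to within 1000 bases of an alternative start of Sphk1, so that its peaks are among those counted at the start site. The other regions open only in acutely isolated ECs lay at S1pr1 (over its exon, 2.55 and 2.71), at S1pr3 (an intronic one with 3.16 and 3.69 and one inside Shc3) and beside Sphk2 inside Dbp.

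**Figure D5:**
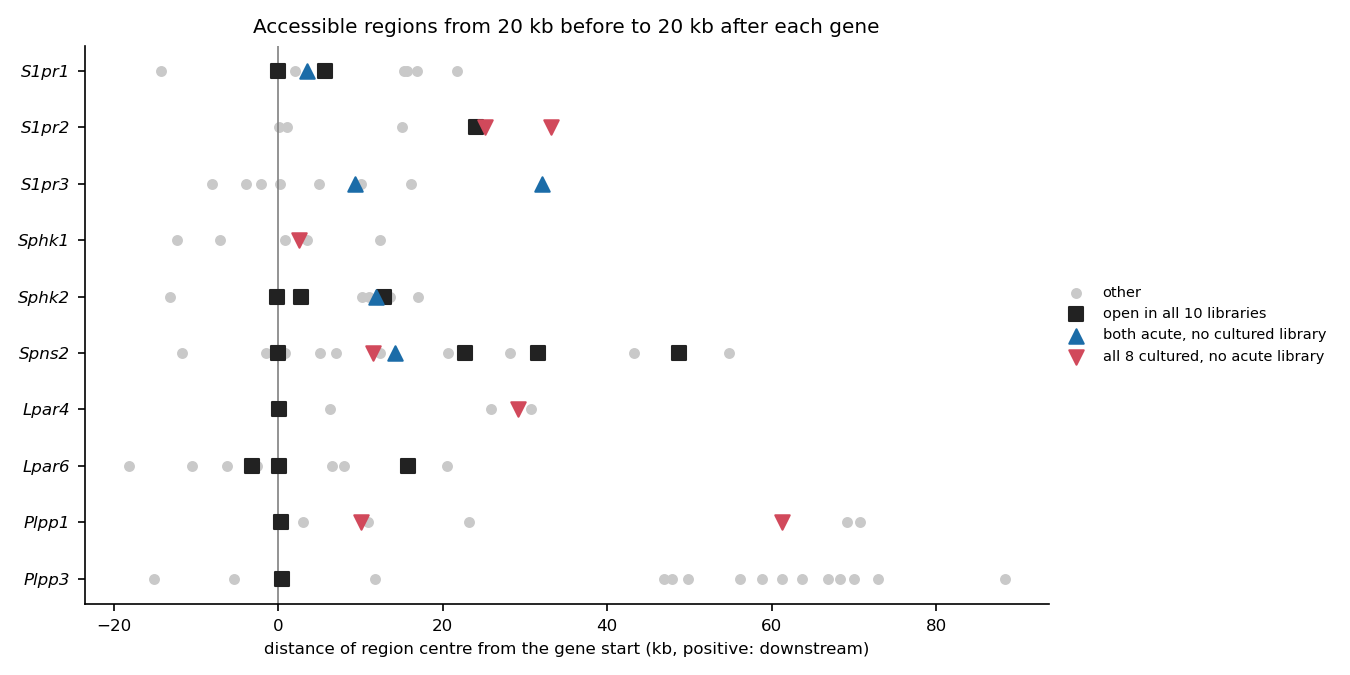
Position of accessible regions (distance of the region centre from the gene start in kb, positive downstream) around each of the 10 genes, marked by the libraries in which they were open. Squares (all 10 libraries) lie at or near the start of 7 genes, and downward triangles (all 8 cultured, no acute) mark 7 regions at Plpp1, S1pr2, Sphk1, Lpar4 and Spns2.

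Among the 7 culture-only regions, 3 hold the AP-1 letters within 300 bases around the peak summit (at Plpp1, S1pr2 and Sphk1) and 5 hold the TEAD letters (both at Plpp1 and 1 each at S1pr2, Sphk1 and Lpar4). Over all 10111 culture-only regions, 52.8% hold the AP-1 letters and 28.3% the TEAD letters, against 5.89% and 16.2% of 3564 acute-only regions and 12.8% and 14.3% of 16905 regions open in all libraries. The TCF/LEF letters are in 39.1% of acute-only regions over the genome, 18.4% of culture-only regions and 13% of regions open in all libraries. Near the 10 genes they are in 2 of 5 acute-only regions, at S1pr1 and S1pr3, and in 1 of 7 culture-only regions, at Plpp1. All 5 acute-only regions hold the KLF letters, which 56.3% of acute-only regions over the genome hold. With so few regions these counts are a description.

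For each gene, the 3 protein-coding genes with the most similar pattern of log2(TPM + 1) over the 14 libraries are named as a description, since libraries share experiments and groups. For S1pr1 they were Prmt6, Ggcx and Tyms (Pearson r = 0.991, 0.991 and 0.990), for Lpar6 Taldo1, Capg and Ecscr (0.996, 0.996 and 0.995), for Plpp1 Psmg4, Tomm20 and Ppp1r14b (0.997, 0.997 and 0.995), and for Lpar4 Rps13, Pdlim5 and Ptgs2 (0.989, 0.986 and 0.981). For Sphk1 they were Pawr, Wdr1 and Mif (0.989, 0.986 and 0.986), for Sphk2 Kctd5, Mcrip2 and Dtymk (0.985, 0.985 and 0.983) and for Spns2 Slc25a24, Lrrc8c and Thsd1 (0.969, 0.963 and 0.962). For S1pr2 they were Prps1, Psmd11 and Taf6l (0.951, 0.932 and 0.931). S1pr3 resembled Ndrg2, Pid1 and Sox9 (0.980, 0.976 and 0.970) and Plpp3 resembled Syt11, Camk2b and Cd53 (0.989, 0.988 and 0.985), and in both cases the GFP-negative libraries were the highest. Within the list, r was 0.97 for Lpar6 with Plpp1, 0.93 for Sphk1 with Plpp1, 0.89 for S1pr3 with Plpp3 and −0.86 for S1pr3 with Lpar4.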

How the data were processed

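The 14 RNA-seq and 10 ATAC-seq libraries were grouped by the titles, genotypes and cell types of the records, with isolation method, experiment and read length from the study's Methods. The authors quantified RNA-seq reads with Salmon 0.14.0 on GENCODE M21 transcripts, and the deposited files hold for each transcript an estimated count, a TPM and an effective length. The counts carry no normalization, while TPM, as the authors made it, divides counts by effective length and brings each library to an equal sum. The authors aligned ATAC-seq reads with HISAT2 2.1.0 to GRCm38 and called peaks per library with MACS2 2.1.2; the deposited lists give each peak's fold enrichment and −log10 q. Records of cerebrum alone were not analysed here.

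Estimated counts and TPM were summed per gene symbol over transcripts, and summed counts were rounded to whole numbers. In R 4.3.3, the quasi-likelihood F test of edgeR 4.0.16 was run on protein-coding genes kept by filterByExpr, with TMM factors and Benjamini-Hochberg adjustment over all genes tested. Each comparison was fitted on its own libraries, with edgeR in place of the study's EBSeq and the study's thresholds (adjusted p under 0.05, 2-fold, 5 TPM in each library of the higher group). SE is the log2 fold change divided by the root of F. The interaction of stabilization with isolation method used the 8 cultured libraries of 36 cycles. Alternatives used DESeq2 1.42.0, limma 3.58.1 on log2(TPM + 1) and log2(TPM + 0.1), library-size scaling, an offset for transcript length, other filters, subsets of cultures, a replicate block and each library left out. The fitting step was tested on simulated data. Depth was high, so the spread between libraries set the precision for all but the lowest genes. All pairs of libraries within a group differed by more than sampling noise. Columns of other samples in the files used numbered 0.

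The members and gene lists were chosen with earlier results of these data known. Named were the 10 genes, up to 3 called genes per direction, list and comparison with the largest change, and the 3 genes most like each of the 10 by Pearson r. Of the genes called in 4 lists only some are printed. The merged regions and the letter sets searched in them were chosen after the data were seen. Motif shares were counted in 300 bases around the summit of the strongest peak and in RefSeq promoters (250 bases before to 50 after a start). Protein sequences were not used here.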

Additional observations from a re-analysis of the deposited data

Results flagged for a closer look

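S1pr3 stood apart in 1 library of each culture group. In WT cultures it was highest in replicate 4, at 1.81 TPM (176 counts) where the other 5 lay between 0.158 and 0.694 TPM (24 to 63 counts), and in stabilized cultures in replicate 2, at 1.27 TPM (194 counts) where the other 3 lay between 0.157 and 0.267 TPM (48 to 70 counts). In each group the gap to the next library exceeded Dixon's 95% critical value, which chance gives in about 1 of 20 groups, and 20 groups of the 10 genes were tested. The ATAC-seq libraries of the same group and replicate number, 1 of 6 and 1 of 2, were also the only cultured ones with a peak at the S1pr3 start site, with fold enrichments of 4.13 and 3.34. The 2 stabilized libraries came from different isolations (method A for RNA-seq and method B for ATAC-seq), and whether the 2 WT libraries share an experiment was not given in the sources used here. The cause was not tested.

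The effect of stabilization differed between isolation methods for 3 of the 10 genes, where 49.6% of 13357 genes passed the same test. The interaction, method A minus method B, was −0.54 for Lpar4 (log2, SE 0.17, edgeR adjusted p = 0.0296), −0.60 for Lpar6 (SE 0.12, adjusted p = 0.00356) and 0.30 for Plpp3 (SE 0.10, adjusted p = 0.0313). In TPM, Lpar4 went from a mean of 10.7 in WT to 10.9 in stabilized wells by method A (ratio 1.02) and from 26.9 to 21.2 by method B (0.788). Lpar6 went from 45.4 to 57.5 by method A (1.27) and from 32.8 to 35.2 by method B (1.07), and Plpp3 from 7.89 to 19.0 (2.41) and from 4.83 to 5.05 (1.05). For Lpar4 and Lpar6 the order of the methods is thus opposite in TPM and in the scaled counts, and Lpar4 and Plpp3 each lost the call without any 1 of several libraries. Lpar4 lost it without WT replicate 1 or 5 or stabilized replicate 1, 3 or 4 (adjusted p 0.067 to 0.115), and Plpp3 without WT replicate 1 or 6 or stabilized replicate 1, 2, 3 or 4 (adjusted p 0.0519 to 0.0932), with DESeq2 (0.0873), with library-size scaling (0.127) and with no count filter (0.0506). The test takes WT replicates 5 and 6 as method B, which a legend gives to method A. Each method stands for 1 experiment per genotype. The WT wells came from C57BL/6J mice in method A and from mice with the unrecombined Ctnnb1flex3 allele and Tie2-GFP in method B. Method, experiment and genotype of the controls therefore cannot be told apart.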

How the results depend on the processing

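Of the values of the 10 genes under alternative settings, 756 kept their direction and their side of the threshold, 40 lost a call, 23 gained one and 45 changed sign. All 45 sign changes were of differences without a call except for Plpp3 in WT cultures against acutely isolated ECs, which was 0.07 under both limma settings. The cause of the other changes was not tested. In WT cultures against acutely isolated ECs, Spns2 was −0.02 with DESeq2, −1.23 with the length offset, −0.01 with limma on log2(TPM + 1), −0.6 in method A cultures and −0.28 with a replicate block, and ran from −0.61 to 1.3 with each library left out. The number of the 10 genes called there was 5 to 8 under the other settings and 4 to 6 with each library left out; Plpp3 also lost its call in method A cultures (−0.93) and after summing both wells per experiment (adjusted p = 0.0793). For GFP-positive against GFP-negative cells it was 6 instead of 3 with no TPM minimum and by adjusted p alone, 2 under both limma settings, where S1pr3 lost its call, 2 with all genes in the fit, where Spns2 lost its call (adjusted p = 0.0761), and 2 to 3 with each library left out. There S1pr1 was −0.19 with library-size scaling and −0.09 under both limma settings, and Sphk2 was −0.03 with DESeq2 and with no count filter, −0.35 with library-size scaling, −1.1 with the length offset, −1.11 and −1.35 with limma and −0.06 with all genes in the fit. With each library left out, S1pr1 ran from −0.1 to 0.65, Sphk2 from −0.3 to 0.47 and Plpp1 from −0.07 to 1.62. For stabilized against WT cultures, 0 genes of the list were called in each setting run. Lpar4 was 0.02 with the length offset and 0.04 with the block, S1pr3 was 0.55 with method as a term, 0.92 within method A and 0.19 within method B, and S1pr1, Sphk2 and Lpar6 were 0.02, 0.03 and 0.14 within method B. With each library left out, Lpar4 ran from −0.54 to 0.02, S1pr3 from −0.84 to 0.46 and Spns2 from −0.08 to 0.32. For stabilized cultures against acutely isolated ECs, Spns2 was −1.14 with the length offset, −0.47 in method A cultures, −0.15 with the block and −0.39 to 1.49 with each library left out, and Plpp3 was 0.44 and 0.46 with limma. The interaction called 2 or 4 of the 10 genes under the other settings and 1 to 4 with each library left out (1 without WT replicate 1 and 1 without stabilized replicate 4). Between WT cultures and acutely isolated ECs, library-size scaling moved the median change over all genes from 0.1 to 0.3 (log2), and between GFP-positive and GFP-negative cells from −0.06 to −0.44.

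Same-numbered libraries did not all deviate together (for stabilized and WT cultures r was 0.514, 0.544, 0.022 and 0.113 for replicates 1 to 4, and stabilized replicate 1 correlated best with WT replicate 2), so replicate numbers were not taken as pairs. For GFP-positive and GFP-negative cells, 2 libraries per group force mirror values (r = 0.067 and −0.067), so the check cannot judge pairing there. With the replicate number as a block, 5 of the 10 genes were called in WT cultures against acutely isolated ECs, 3 in GFP-positive against GFP-negative cells, 0 in stabilized against WT cultures and 3, instead of 5, in stabilized cultures against acutely isolated ECs, where Sphk2 and Lpar4 lost their calls.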
